A study of Mus musculus with 11 samples.

Results

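Disease-associated microglia are defined by a set of transcripts that microglia switch on around amyloid plaques, dying neurons and demyelinated tissue. The 10 genes followed here, Apoe, Trem2, Tyrobp, Cst7, Lpl, Spp1, Itgax, Gpnmb, Clec7a and Axl, were taken by name as the core of that set, and they are 10 of the 26921 genes measured. All 10 were detected in every one of the 11 libraries. Single cells came from the cerebral cortex of C57BL/6 mice, dissociated with papain and Liberase, depleted of myelin and cleared of dead cells, and were sequenced with the 10x 3′ v2 assay, which counts unique molecular identifiers (UMIs, 1 per captured transcript). There were 4 juvenile libraries (postnatal day 10, P10), 3 adult libraries (7 to 11 weeks), 2 aged libraries (18 months) and 2 libraries of experimental autoimmune encephalomyelitis (EAE). EAE is a T cell driven model of multiple sclerosis, induced here in female mice of 7 to 11 weeks with a myelin oligodendrocyte glycoprotein peptide in Complete Freund's Adjuvant followed by pertussis toxin, with tissue taken at the peak of disease. The other mice were untreated, and the adult group, which received neither adjuvant nor toxin, was the reference for every comparison. Each juvenile or adult sample pooled the cortices of 6 mice, and each aged or EAE sample those of 3.

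The genes fall into a sensing complex, a lipid arm and an induced arm. TREM2 is a surface receptor for lipids and lipoproteins, and TYROBP (DAP12) is the adaptor through which it signals to the kinase SYK. APOE is the main apolipoprotein of the brain, the protein part of its lipoprotein particles, and a TREM2 ligand, and LPL is the lipase that frees fatty acids from lipoproteins. The induced arm holds CST7 (cystatin F, an inhibitor of lysosomal cysteine proteases), ITGAX (CD11c, an integrin subunit), CLEC7A (dectin-1, a receptor for fungal glucans), AXL (a receptor tyrosine kinase that takes part in the uptake of dead cells through its ligand GAS6), SPP1 (osteopontin, a secreted matrix protein) and GPNMB (a glycoprotein of lysosomes and the cell surface). In the healthy brain most of these are low in microglia, whereas P2RY12, TMEM119 and CX3CR1 mark the resting, homeostatic state. Perivascular macrophages (PVMs) live along vessels outside the parenchyma, and in EAE monocyte-derived macrophages enter from blood.

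Barcodes were kept as cells at above 500 and below 6000 detected genes with mitochondrial UMIs below 25%, which left 50625 of 54646. These were clustered without the 10 genes or the further disease-associated and partner genes described below. Clusters were named microglia-like, PVM-like and macrophage-like from marker genes and are called microglia, PVMs and macrophages from here on. They held 8793 microglia (3796 juvenile, 959 adult, 1185 aged and 2853 EAE), 2203 PVMs (566, 559, 545 and 533) and 1683 macrophages, of which 1565 were from EAE. The summed CPM (a gene's UMIs scaled to a fixed total for that population in that library) of 8 microglial markers was 6611 to 19245 in microglia and 584 to 1384 in PVMs. That of 8 PVM markers was 6596 to 15598 in PVMs and 163 to 490 in microglia. These markers also named the clusters, so their sums describe the names and do not test them. In EAE PVMs 8 macrophage markers summed to 2211 to 2250 CPM, against 641 to 743 in adult PVMs. Libraries held 15755504 to 34326349 UMIs, and the median cell held 2109 to 3540 UMIs in microglia and 2617 to 4532 in PVMs, depending on the library. Any 2 libraries shared 10 to 113 cell barcodes, at most 1.53% of the smaller one.

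Before any test the libraries of each condition were compared with each other. The mean squared difference between 2 libraries, in units of counting error (1 when they differ by counting error only), was 1.10 for microglia of Juvenile 1 and 2, 1.21 for Juvenile 3 and 4, 0.955 for Adult 2 and 3, 1.24 for the aged and 1.41 for the EAE libraries, but 10.1 to 11.3 across the juvenile pairs and 3.44 to 3.49 between Adult 1 and the other adult libraries. In PVMs the neighbouring libraries gave 0.918 to 1.03. Neighbouring libraries therefore differed by little more than counting error and may be drawn from 1 pool of cells. Adult 2 and 3 were counted as 1 replicate (n = 4 juvenile, 2 adult, 2 aged and 2 EAE), and p-values measure the spread between libraries, not between mice. Beside each call of a member the adjusted p is also given with every neighbouring pair of libraries summed, which leaves 2 juvenile, 2 adult, 1 aged and 1 EAE replicate and assumes that the lone ones vary like the others. Adult 1 stood apart. Its microglia held 56548 CPM of 4 choroid plexus markers, against 6376 to 23820 in the other libraries, and the calls of members that change without it are named.

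**Figure D1:**
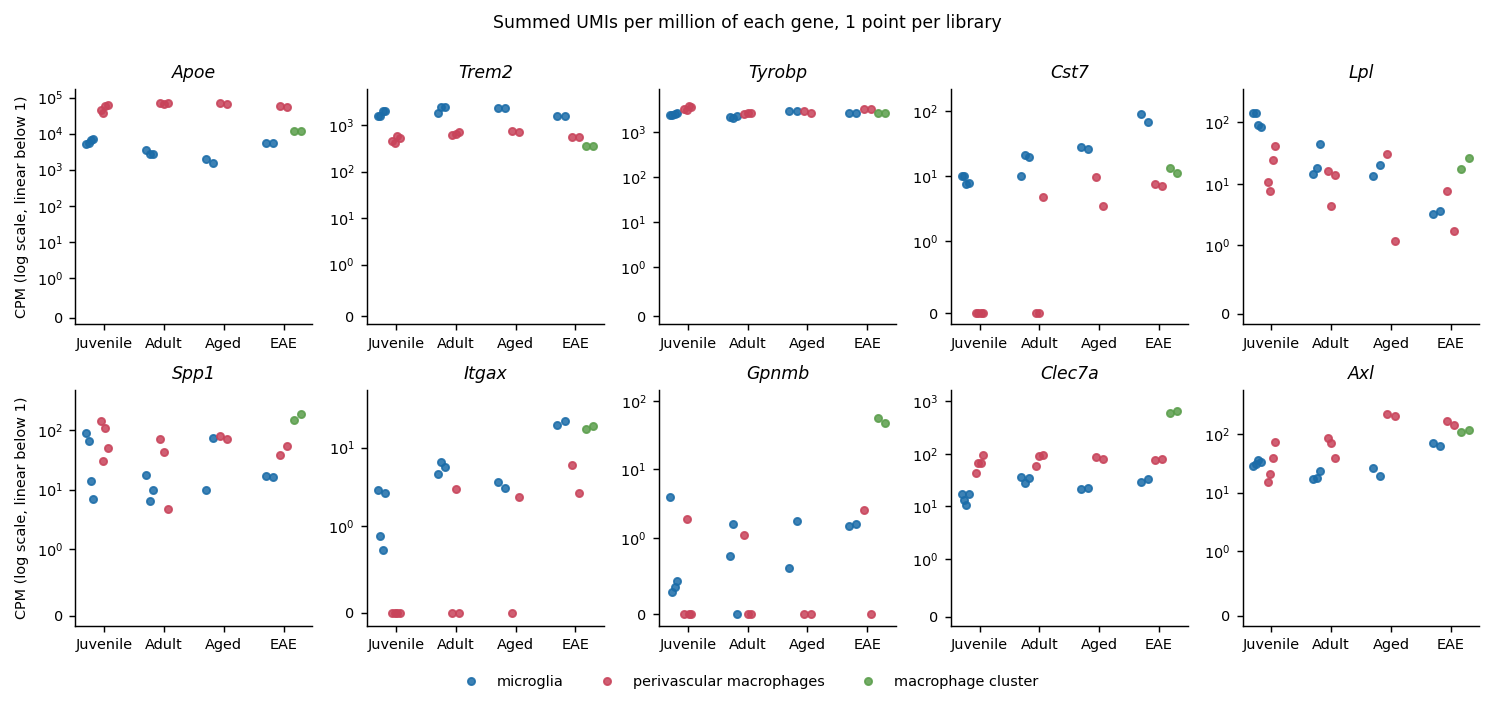
Level of each of the 10 genes in CPM (log scale, linear below 1) by condition, with 1 point per library, in microglia (blue), PVMs (red) and the EAE macrophage cluster (green). In microglia the 2 EAE libraries lie above all others for Cst7, Itgax and Axl and below all others for Lpl, and Apoe is highest in PVMs in every condition.

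The sensing complex was expressed in microglia of every condition. Trem2 was at 1855, 2450.4 and 2460.1 CPM in the 3 adult libraries, 2363 and 2297 in the 2 aged, 1546 and 1565 in the 2 EAE and 1612, 1576, 1979.6 and 2058 in the 4 juvenile libraries. The EAE values lay below all adult values, but the difference did not pass the test (log2 change -0.26 ± 0.16 SE, edgeR adjusted p = 0.26), nor did the others, although the juvenile one passed with 11 separate libraries (-0.35, edgeR adjusted p = 0.041). Tyrobp was at 2173, 2135 and 2283 CPM in adult, 3007 and 2951 in aged, 2733 and 2782 in EAE and 2469, 2482, 2592 and 2703 in juvenile microglia. Every aged, EAE and juvenile library lay above every adult one. The juvenile difference did not pass (log2 change 0.15 to 0.23 with 1 library left out). Tyrobp rose in EAE by 0.54 ± 0.11 SE on the log2 scale (edgeR adjusted p = 0.0026) and in aged microglia by 0.46 ± 0.11 (edgeR adjusted p = 0.046). Both calls were lost with neighbouring libraries summed (edgeR adjusted p = 0.17 and 0.76). The aged call was also lost without any 1 of Adult 1 or 2, Aged 1 or 2, EAE 1 or 2 and Juvenile 2 or 3, with adjusted p up to 0.31.

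Of the lipid arm, Apoe was higher in juvenile and EAE than in adult microglia, while Lpl moved in opposite directions in these conditions. Apoe was at 3562, 2639.9 and 2809.9 CPM in adult, 5199.8, 5402, 6612 and 7143 in juvenile, 5659 and 5442 in EAE and 2029 and 1522 in aged microglia. The juvenile and EAE libraries all lay above the adult ones and the aged ones all below. The log2 change was 0.92 ± 0.17 SE at P10 and 1.03 ± 0.20 in EAE (edgeR adjusted p = 0.0021 in both, and 0.032 and 0.045 with neighbouring libraries summed), and -0.81 ± 0.20 in aged microglia, which did not pass (edgeR adjusted p = 0.056, or 0.048 without Juvenile 4, 0.0053 without cells with 5 or more UMIs of other classes' markers, 4.6e-06 with no filter on low counts and 0.022 by DESeq2).

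Apoe was also abundant in other cells. PVMs held 37472 to 71064 CPM of it, above microglia in 11 of 11 libraries. Endothelial cells (ECs), which lack the macrophage programme, held 1885 to 3418 CPM in adult and aged libraries and 1188 to 2358 in juvenile and EAE libraries, and the adult and aged microglia were both near that level, at 1.04, 1.25 and 1.35 times the ECs of the same library in adult and 1.08 and 0.746 times in aged libraries. PVM markers in microglia stood at 2.3% to 3.3% of their level in PVMs, and that percentage of the PVM Apoe level was 2292, 1660 and 1807 CPM in the adult libraries against 3562, 2639.9 and 2809.9 measured, and 1917 and 1648 CPM in the aged libraries against 2029 and 1522 measured. In the EAE libraries it was 1399 and 1495 against 5659 and 5442 measured, and in the juvenile libraries 1246 to 1446 against 5200 to 7143. These figures cover PVM transcripts only. Astrocytes had the next highest median Apoe (28480 CPM). Their 5 markers summed to 306 to 322 CPM in EAE microglia, 117 to 226 in adult and 103 to 134 in juvenile ones. The part of astrocyte and macrophage transcripts in the Apoe levels was not tested. With cells holding 5 or more UMIs of other classes' markers left out, an alternative chosen after seeing the data, both the juvenile and the EAE call were kept. Naming microglia cell by cell from a marker score, with no clustering, put choroid plexus cells and PVMs into every group (228 and 16 adult, 338 and 15 juvenile, 69 and 30 aged, 44 and 18 EAE) and ended both calls (0.03 at P10 and 0.32 in EAE, edgeR adjusted p = 0.89 and 0.12).

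Lpl was at 14.5, 17.8 and 43.6 CPM in adult microglia, 140.2, 141, 91.1 and 84.9 in juvenile, 13.3 and 20.4 in aged and 3.26 and 3.66 in EAE microglia. All 4 juvenile libraries lay above and both EAE libraries below every adult library, and the aged libraries overlapped the adult ones. It rose by 2.28 ± 0.33 SE on the log2 scale at P10 (edgeR adjusted p = 0.00061, and 0.0075 with neighbouring libraries summed) and fell in EAE by 2.51 ± 0.51 SE (edgeR adjusted p = 0.0049, and 0.028). Lpl was the 1 member called as lower in EAE microglia. In ECs of the same EAE libraries Lpl was at 20.8 and 15.8 CPM, against 0.8 to 1.3 in adult ECs, so in ECs its level in EAE was the higher one.

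The induced arm separated EAE from the other conditions through Cst7, Axl and Itgax. For these, the windows from 250 bases upstream to 50 bases downstream of the RefSeq start site (GRCm38.p6) are printed (promoter and first transcribed bases), since these members rose together in EAE microglia. Among the 10 genes 8 had a window in the RefSeq table (12 windows; Tyrobp and Lpl had no entry). Capitals mark matches to the AP-1 core TGANTCA in Cst7 and Itgax and to the PU.1 core GAGGAAG in Axl, searched on both strands. The Cst7 window lies at chr2:150570165-150570464 (plus strand), the Itgax window at chr7:128129300-128129599 (plus strand) and the Axl window at chr7:25788684-25788983 (minus strand, printed 5′ to 3′ along the gene).
Cst7: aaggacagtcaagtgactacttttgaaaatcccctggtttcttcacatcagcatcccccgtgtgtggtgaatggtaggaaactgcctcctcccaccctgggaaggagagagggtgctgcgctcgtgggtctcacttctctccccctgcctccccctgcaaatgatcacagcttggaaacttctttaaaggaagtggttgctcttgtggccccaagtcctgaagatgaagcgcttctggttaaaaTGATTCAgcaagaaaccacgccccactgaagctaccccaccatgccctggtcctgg
Itgax: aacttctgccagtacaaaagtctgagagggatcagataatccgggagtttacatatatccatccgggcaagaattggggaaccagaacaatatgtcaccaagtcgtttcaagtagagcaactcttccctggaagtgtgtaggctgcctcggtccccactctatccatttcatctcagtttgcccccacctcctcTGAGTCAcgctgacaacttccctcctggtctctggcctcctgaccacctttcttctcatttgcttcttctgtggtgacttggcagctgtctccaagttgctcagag
Axl: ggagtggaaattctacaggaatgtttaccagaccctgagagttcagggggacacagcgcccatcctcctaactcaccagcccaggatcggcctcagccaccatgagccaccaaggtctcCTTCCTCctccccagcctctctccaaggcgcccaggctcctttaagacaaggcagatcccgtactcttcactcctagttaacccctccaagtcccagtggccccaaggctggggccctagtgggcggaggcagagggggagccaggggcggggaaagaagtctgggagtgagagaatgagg

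No window of the 3 held both cores. The cores were also found in members without a call in EAE microglia. The Trem2 window held both, the Gpnmb window the AP-1 core and an Spp1 window the PU.1 core. No window of Clec7a, or of Apoe, which was also called as higher in EAE microglia, held either core. Of all 32851 RefSeq windows of this length, 7.81% held TGANTCA and 13.6% held GAGGAAG, and a match describes the letters of the window only.

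Cst7 was at 9.93, 21.1 and 19.7 CPM in adult microglia and at 89.2 and 69.3 in EAE microglia. Aged microglia held 28.4 and 26.4 CPM and juvenile microglia 10.1, 10.0, 7.59 and 7.76. Both EAE libraries lay above every other library, and the aged libraries lay just above the adult ones. Cst7 rose in EAE by 2.59 ± 0.25 SE on the log2 scale (edgeR adjusted p = 2.9e-06, and 0.0023 with neighbouring libraries summed). The aged and juvenile differences did not pass (log2 change 0.87 ± 0.30 and -0.78 ± 0.30 SE, edgeR adjusted p = 0.15 and 0.068), although without Adult 1, whose Cst7 was the lowest of the adult libraries, the juvenile value was -1.20 with an adjusted p of 0.022, and with 11 separate libraries it also passed (0.041). The aged difference passed without cells with 5 or more UMIs of other classes' markers (1.92, edgeR adjusted p = 0.024) and with no filter on low counts (0.90, 0.038).

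Axl was at 16.8, 17.8 and 23.9 CPM in adult microglia, 25.9 and 19.2 in aged, 29.0, 31.3, 36.9 and 33.6 in juvenile and 69.9 and 63.0 in EAE microglia. The order EAE, juvenile, then adult and aged held for every library, and adult and aged overlapped. Axl rose in EAE by 2.02 ± 0.20 SE on the log2 scale (edgeR adjusted p = 5.4e-06, and 0.0025 with neighbouring libraries summed). It rose at P10 by 0.75 ± 0.21 SE (edgeR adjusted p = 0.016), a call lost with neighbouring libraries summed (0.086), without Adult 1 (0.16) and without cells with 5 or more UMIs of other classes' markers (0.15).

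Itgax was at 4.58, 6.48 and 5.62 CPM in adult, 3.62 and 3.0 in aged, 2.87, 0.885, 0.723 and 2.59 in juvenile and 19.2 and 21.6 in EAE microglia, with the EAE libraries above and the juvenile and aged libraries below every adult library. It rose in EAE by 2.14 ± 0.41 SE on the log2 scale (edgeR adjusted p = 0.0015, and 0.017 with neighbouring libraries summed). The adult and juvenile levels rested on few UMIs per library. The lower juvenile level passed narrowly (-1.60 ± 0.53 SE, edgeR adjusted p = 0.04) and was lost with neighbouring libraries summed (0.087) and without any 1 of the adult, aged or EAE libraries or of Juvenile 2 or 3, with adjusted p from 0.054 to 0.11. It was also lost at clustering resolution 0.9 (0.15), with the listed genes left in the clustering (-1.12, 0.21), with cells named by marker score (-0.75, 0.48) and without cells with 5 or more UMIs of other classes' markers (-0.93, 0.57). Of 21 alternative settings 7 kept it. The EAE rises of Cst7, Axl and Itgax and the fall of Lpl kept their call under all 21 alternative settings.

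Clec7a did not follow them. It was at 36.7, 27.5 and 35.1 CPM in adult and 28.9 and 33.1 in EAE microglia, which overlap (log2 change 0.07 ± 0.21 SE, edgeR adjusted p = 0.84). Aged microglia held 21.1 and 22.8 CPM and juvenile microglia 17.2, 13.3, 10.5 and 16.8, all below the adult libraries, and the juvenile difference passed (-1.27 ± 0.21 SE, edgeR adjusted p = 0.00056, and 0.013 with neighbouring libraries summed). That call was lost when cells with 5 or more UMIs of other classes' markers were left out, an alternative chosen after seeing the data (-0.90, adjusted p = 0.096). In EAE the 8 macrophage markers summed to 714 to 732 CPM in microglia, 4.97% to 5.12% of their level in macrophages, and that percentage of the macrophage level of each gene was 30.1 and 33.5 CPM for Clec7a, as much as was measured. For Cst7 it was 0.67 and 0.58 CPM, for Itgax 0.87 and 0.96, and for Axl 5.4 and 6.1, where 89.2 and 69.3, 19.2 and 21.6, and 69.9 and 63.0 CPM were measured. These figures assume the same percentage for every gene, and the part of transcripts from other cells in the measured levels was not tested. T and NK cells, in which Cst7 was highest of all classes (median 89.5 CPM), left 25 to 31 CPM of their own 8 markers in EAE microglia, equal to 0.63 and 0.50 CPM of Cst7.

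Spp1 and Gpnmb showed no condition difference that passed. Spp1 was at 17.6, 6.48 and 9.83 CPM in adult, 9.66 and 73.1 in aged, 17.0 and 16.3 in EAE and 87.9, 66.1, 14.1 and 6.90 in juvenile microglia, so the conditions overlapped. In Aged 2 a few cells held most of the Spp1 UMIs, with 72 of 122 in 1 cell and 89.3% in 5 cells. The Aged 2 level without the highest cell was 30.0 CPM. In the juvenile libraries with the highest levels the UMIs were spread over more cells. Juvenile 1 held 306 Spp1 UMIs in 66 cells, with 69 in the highest, and Juvenile 2 held 224 in 44 cells, with 40 in the highest. Gpnmb was at 4.02 CPM in Juvenile 1 and at 0 to 1.8 CPM in every other library, with 10 of the 14 UMIs of Juvenile 1 in 1 cell, and it was too low to test.

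**Figure D2:**
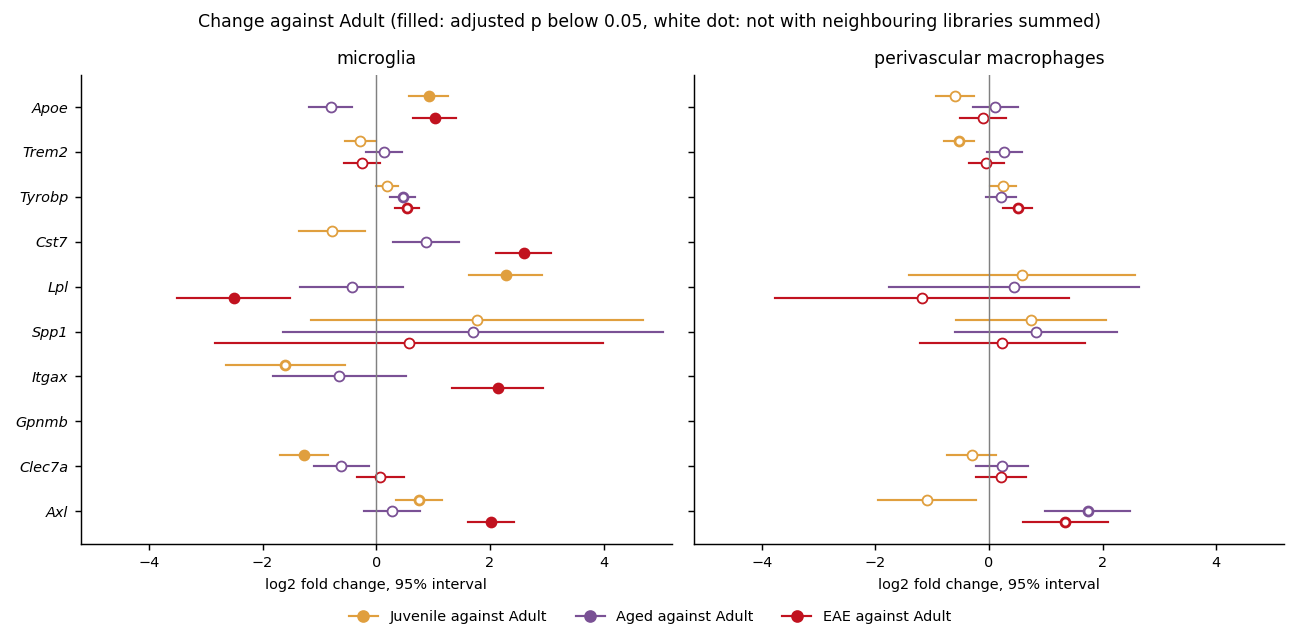
Log2 change against adult of each tested gene in microglia and PVMs at P10, 18 months and in EAE, with 95% intervals from edgeR. Filled points passed an adjusted p of 0.05, and a white dot marks a call lost with neighbouring libraries summed, which holds for every call in PVMs and not for Cst7, Itgax, Axl, Apoe and Lpl in EAE microglia.

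In microglia 9 members were tested. In EAE 5 were called as higher and 1 as lower, where 25.7% of the 11310 genes tested were called (13.4% higher and 12.4% lower). At P10 3 were called as higher and 2 as lower, where 24.5% of genes were called (12.1% higher and 12.4% lower). At 18 months 1 was called as higher by edgeR, Tyrobp, and DESeq2 also called Apoe as lower, where 1.91% of genes were called (1.05% higher and 0.858% lower). The median log2 change of the 9 was 0.57 in EAE, 0.19 at P10 and 0.14 at 18 months, beside -0.003 to -0.026 over all genes tested.

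PVMs held more Apoe and Clec7a and less Trem2 than microglia of the same library, in 11 of 11 libraries for each, which was described without a test. Apoe was at 69771, 65870.0 and 71064 CPM in adult, 70758 and 68446 in aged, 57383 and 56059.8 in EAE and 44299, 37472, 56854 and 61123 in juvenile PVMs. The juvenile and EAE libraries lay below all adult ones, the reverse of microglia, but neither difference passed (log2 change -0.60 ± 0.17 and -0.11 ± 0.20 SE, edgeR adjusted p = 0.068 and 0.79). The juvenile one passed without Adult 3 (0.045), Juvenile 2 (0.0075), Juvenile 3 (0.014) or Juvenile 4 (0.0061), by DESeq2 (0.029), with 11 separate libraries (0.029), by marker score (0.0096) and with no filter on low counts (2.0e-08).

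Axl was highest in aged and EAE PVMs. It was at 87.4, 70.8 and 39.2 CPM in adult PVMs, 226 and 209 in aged, 168 and 146 in EAE and 15.2, 20.7, 39.7 and 73.6 in juvenile PVMs. All aged and EAE libraries lay above all adult and juvenile ones, with the aged libraries highest. The log2 change was 1.74 ± 0.38 SE at 18 months (edgeR adjusted p = 0.049) and 1.34 ± 0.38 in EAE (edgeR adjusted p = 0.041). Both calls were lost in the edgeR fit with neighbouring libraries summed (adjusted p = 0.51 and 0.25) and without any 1 of Adult 2, Aged 1 or 2, EAE 1 or 2 and Juvenile 3, with adjusted p up to 0.31 at 18 months and 0.21 in EAE. Without doublets both were lost too (0.089 and 0.069), as were the aged call at resolution 0.9 (0.13) and the EAE call without cells with 5 or more UMIs of other classes' markers (0.15). Each was kept in 12 of 21 alternative settings. The lower juvenile level (-1.09 ± 0.44 SE, edgeR adjusted p = 0.18) passed, of the fits with 1 library left out, without Juvenile 4 (-1.62, adjusted p = 0.0012), and it also passed by marker score (-0.92, 0.031) and with no filter on low counts (-1.13, 7.2e-05). The cluster with 96.2% of EAE and 29.5% of aged PVMs held 8.59% of adult and 2.47% of juvenile ones. These values thus set PVMs of partly different clusters against each other. In aged PVMs the summed level of 7 genes listed as dendritic cell markers, among them Cd209a, which PVMs are also known to express, was 1068 to 1249 CPM against 199 to 270 in adult PVMs, and its part in the Axl level was not tested. In EAE PVMs the 8 macrophage markers stood at 15% to 16.2% of their level in macrophages, and that percentage of the macrophage Axl was 16.4 and 19.4 CPM, against 168 and 146 measured.

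The sensing complex in PVMs had Tyrobp at 2608, 2692 and 2760.0 CPM in adult, 3027 and 2715 in aged, 3330.2 and 3352 in EAE and 3254, 3138, 3814 and 3716 in juvenile libraries. Every EAE and juvenile library lay above every adult one. Tyrobp rose in EAE by 0.50 ± 0.13 SE on the log2 scale (edgeR adjusted p = 0.0083). That call was lost with neighbouring libraries summed (log2 change 0.53) and without EAE 1 or EAE 2. It was also lost without cells with 5 or more UMIs of other classes' markers (0.31, edgeR adjusted p = 0.33). The juvenile difference of Tyrobp did not pass (log2 change 0.21 to 0.30 with 1 library left out). Trem2 was at 630.3, 660.5 and 713 CPM in adult, 756 and 719 in aged, 558 and 566 in EAE and 467, 416, 593 and 533 in juvenile PVMs. The aged libraries lay above and the EAE and juvenile libraries below every adult one. The aged and EAE differences did not pass (log2 change 0.27 ± 0.16 and -0.05 ± 0.16 SE, edgeR adjusted p = 0.46 and 0.88), and the juvenile one was a fall of 0.52 ± 0.14 SE on the log2 scale (edgeR adjusted p = 0.014, lost at 0.27 with neighbouring libraries summed and at 0.10 without cells with 5 or more UMIs of other classes' markers). In 11 of 11 libraries Trem2 was lower in PVMs than in microglia.

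Clec7a was higher in PVMs than in microglia in 11 of 11 libraries, at 57.9, 89.9 and 94.0 CPM in adult, 87.0 and 79.8 in aged, 77.2 and 78.9 in EAE and 43.5, 67.8, 68.3 and 93.3 in juvenile PVMs, which overlap, and no condition passed. Spp1 ranged from 4.7 to 139 CPM and Lpl from 1.2 to 41.7 CPM over the 11 libraries, also with no call. Cst7 had 0 UMIs in all 4 juvenile and 2 of 3 adult PVM libraries, where 3 UMIs would have been 3.28 to 7.36 CPM, was at 4.70 CPM in the other adult library, and was at 9.67 and 3.52 CPM in aged and 7.63 and 6.93 CPM in EAE PVMs (3 to 9 UMIs). Itgax and Gpnmb were at 0 in most libraries and at most at 5.9 and 2.5 CPM. These 3 were too low to test, so Cst7 and Itgax, which rose in EAE microglia, could not be followed in EAE PVMs. Of the 7 members tested in PVMs, 2 were called as higher in EAE, where 18.9% of the 8424 genes tested were called (10.8% higher and 8.1% lower). At 18 months 1 was called as higher, where 3.34% of genes were called (2.07% higher and 1.27% lower), and at P10 1 was called as lower, where 9.43% were called (3.54% higher and 5.89% lower).

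Whether a change differed between PVMs and microglia was tested directly, with both populations of each library in 1 fit and the library as a block. The change of Apoe passed the test in every condition. At P10 it was -1.52 ± 0.10 SE (log2, PVMs minus microglia; edgeR adjusted p = 1.3e-14), in EAE -1.11 ± 0.11 (edgeR adjusted p = 2.4e-09), and at 18 months, when the sign turned, 0.90 ± 0.12 (edgeR adjusted p = 1.1e-06). The 18-month difference was lost at clustering resolution 0.9 (0.98, edgeR adjusted p = 0.16), and the EAE difference with cells named by marker score (-0.42, 0.053). The change of Axl differed at P10 by -1.85 ± 0.35 SE (edgeR adjusted p = 0.00023) and at 18 months by 1.45 ± 0.37 (edgeR adjusted p = 0.034), and that of Clec7a at P10 by 0.99 ± 0.29 (edgeR adjusted p = 0.02). In EAE the rises of Axl in PVMs and microglia were not shown to differ (-0.63 ± 0.31 SE, edgeR adjusted p = 0.29). Of 9 tested members 1 was called as higher in PVMs and 2 as lower at P10, where 5.98% of 10576 genes were called (1.8% higher and 4.18% lower). At 18 months 2 were called as higher, where 1.1% of genes were called (0.577% higher and 0.52% lower), and in EAE 1 was called as lower, where 6.26% were called (2.56% higher and 3.7% lower). Without the library block only 1 of these 6 calls, Apoe at P10, was kept. The Axl difference at 18 months was lost without Adult 2, Adult 3, Aged 1, Aged 2 or Juvenile 3 (adjusted p up to 0.29). It was also lost by DESeq2 (0.29), with 11 separate libraries (0.078), without doublets (0.12), at resolution 0.9 (0.28), with the listed genes left in the clustering (0.065), by marker score (0.95, adjusted p = 0.29) and without cells with 5 or more UMIs of other classes' markers (0.58). Of 21 alternative settings 7 kept it. The Clec7a difference was lost without Adult 1, Juvenile 2, Juvenile 3 or Juvenile 4 (up to 0.46), by DESeq2 (0.19), by marker score (0.051) and without cells with 5 or more UMIs of other classes' markers (0.35, adjusted p = 0.90). Of the 21 settings 13 kept it. With neighbouring libraries summed 5 of the 6 were kept (edgeR adjusted p = 1.8e-10 for Apoe, 0.0014 for Axl and 0.048 for Clec7a at P10, 0.017 for Apoe at 18 months and 1.4e-04 for Apoe in EAE) and the Axl difference at 18 months was lost (0.12).

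Member levels of macrophages were described in EAE only. The macrophage-like cells of the other conditions lay mostly in a cluster with neutrophil transcripts, and the adult libraries held 21 in all. Of the EAE macrophages 126 (8.05%) lay in that cluster too and are part of the values given here. Clec7a was at 605 and 654 CPM in macrophages of the 2 EAE libraries, against 28.9 and 33.1 in microglia and 77.2 and 78.9 in PVMs of the same libraries. Spp1 was at 148 and 183 CPM and Gpnmb at 57.1 and 48.4, both also above microglia and PVMs. Cst7 went the other way, with 13.5 and 11.3 CPM in macrophages against 89.2 and 69.3 in microglia, and Itgax was at 17.5 and 18.8 in macrophages, near the 19.2 and 21.6 of microglia. Axl was at 109 and 119.8 CPM, between microglia and PVMs. Of the sensing complex Trem2 was low, at 359 and 364 CPM, and Tyrobp at 2688 and 2719, near its level in microglia. Apoe was at 11759.8 and 11892 CPM, between microglia and PVMs, and Lpl at 17.1 and 25.8. Cell populations of 1 library share their reads and dissociation, and these differences between clusters are given without a test.

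Over all named classes of the cortex, Trem2 had its highest median level in microglia (1980 CPM). The highest medians of the others lay elsewhere, of Apoe in PVMs (61123 CPM) ahead of astrocytes, Tyrobp and Clec7a in neutrophils (5599 and 227 CPM), Cst7 in T and NK cells (89.5 CPM), Axl in mural cells (273 CPM), and Lpl and Spp1 in fibroblasts (104 and 734 CPM). These are medians over the libraries with at least 10 cells of a class. Those were 11 for most classes, but 10 for T and NK cells, 7 for macrophages and 4 for neutrophils. The medians thus rest on unlike sets of libraries, hide changes within 1 condition, and were not tested. In EAE macrophages Clec7a was at 605 and 654 CPM, above the highest neutrophil value of 335. No class is given for Itgax and Gpnmb.

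The levels above average over cells, and the next question was whether single cells held several members at once. Each cell was thinned to 1000 UMIs, cells under that depth were left out (25.6% and 25.7% of microglia in Adult 2 and 3, and 0 to 5.87% in the other libraries), and the 7 members of the programme that are low in adult microglia (Cst7, Lpl, Spp1, Itgax, Gpnmb, Clec7a and Axl) were counted per cell. At least 2 of the 7 were detected in 1.68% ± 0.03 of EAE microglia (SD, n = 2), 1.61% ± 0.13 of aged (n = 2), 1.32% ± 0.62 of juvenile (n = 4) and 0.705% ± 0.62 of adult microglia (n = 2). In PVMs the share was 5.22% ± 1.26 in aged, 3.20% ± 0.24 in EAE, 1.62% ± 0.72 in adult and 0.865% ± 0.85 in juvenile libraries. The differences from adult were 0.90 percentage points in aged, 0.97 in EAE and 0.61 in juvenile microglia, and 3.61, 1.58 and -0.75 in PVMs. None passed a two-sided exact permutation test over libraries (adjusted p = 0.40 for each of the 6), and 2 against 2 cannot go below 0.33 nor 4 against 2 below 0.067. Thinned to 1500 UMIs the differences in microglia turned to -0.43 in aged and -0.087 in juvenile. Without Adult 1, at 1000 UMIs, they were 0.17 in juvenile, 0.46 in aged and 0.53 in EAE microglia, and -0.24 in juvenile PVMs. In EAE macrophages the shares were 9.73% (79 of 812 cells, 95% exact binomial interval 7.78% to 12%) and 10.7% (80 of 751, 8.54% to 13.1%). At most 0.0555% of ECs of any library held 2 members at the same thinned depth. Before thinning, when the median EC of a library held 2251 to 8321 UMIs, the shares were 10.0% and 8.70% in EAE microglia, 52.3% and 57.3% in EAE macrophages and at most 0.78% in ECs. Intervals cover counting error only.

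**Figure D3:**
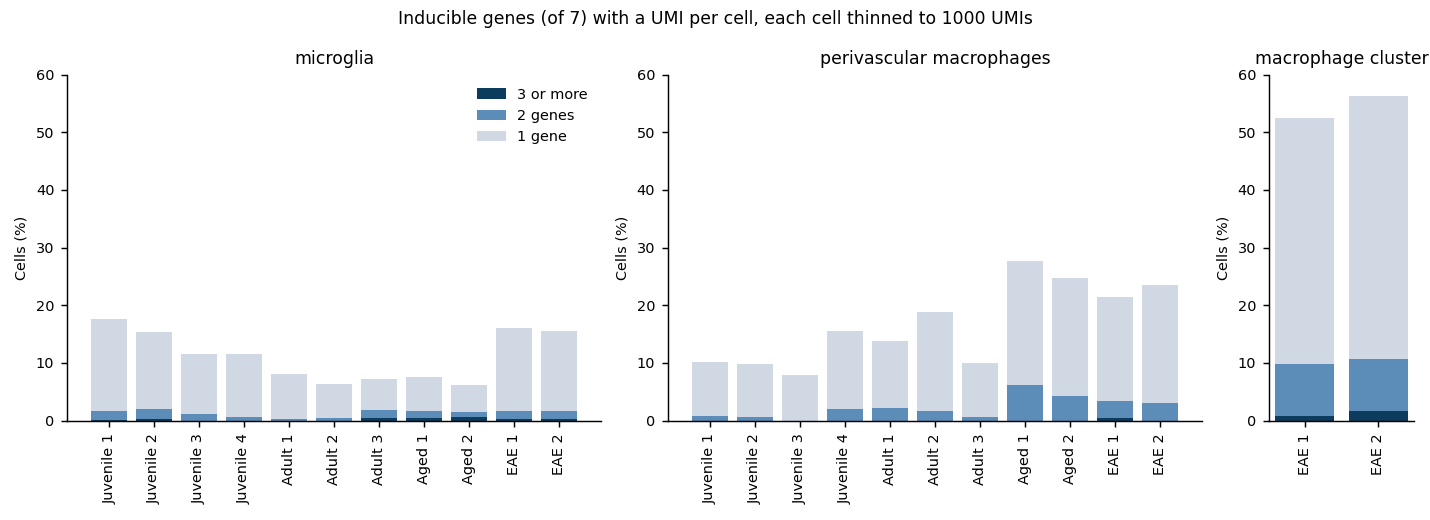
Share of cells in percent with 1, 2 or at least 3 of the 7 induced members (stacked bars) in each library of microglia and PVMs and in the EAE macrophage cluster, after thinning each cell to 1000 UMIs. The parts for 2 or more reach 9.73% and 10.7% in EAE macrophages, 6.12% and 4.33% in aged PVMs and at most 1.98% in microglia.

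Microglia of the conditions lay mostly in different clusters. The cluster with 75.3% of juvenile microglia held 1.04% of adult and 3.04% of aged ones, that with 58.5% of adult microglia also held 93.3% of aged ones, a further one held 39.9% of the adult ones, and the EAE cells lay mostly in 2 others that held 0.209% and 0.313% of adult microglia. These 2 EAE clusters differed in how many members a cell held. The larger, with 87.8% of EAE microglia, had Cst7 at 62.9 CPM and 1.11% of cells with at least 2 members. The smaller, with 330 cells and 11.0% of EAE microglia, was led by cell cycle genes such as Top2a and Birc5, and had Cst7 at 215 CPM (18.9% of thinned cells), Axl at 106, Clec7a at 62.2 and Itgax at 30.1, with 8.05% of cells holding at least 2 members. Its microglial marker score of 0.417 was just above the naming limit of 0.4, against 0.629 in the larger cluster. Its 10 leading genes held 0 microglial markers, as in the juvenile cycling clusters. Its cells were shallow (median 1698 UMIs) and carried 1591 CPM of the macrophage markers against 632 in the larger cluster and 49 CPM of T and NK markers against 25, and the part of these in its levels was not tested. Juvenile microglia also had 2 cycling clusters, in which Cst7 was at 7.2 and 13.7 CPM and Lpl at 153 and 142, against 8.7 and 105 in the main juvenile cluster. PVMs fell into 2 clusters, and the one with 96.2% of EAE and 29.5% of aged PVMs (and 8.59% of adult and 2.47% of juvenile ones) had Axl at 210 CPM against 58.7 and 6.40% of cells with at least 2 members against 0.762%. Clusters were made without the 10 genes, but from cells of the same libraries, which were not aligned with each other before clustering. They can therefore separate libraries as well as conditions. The 2 main adult clusters held 561 and 383 adult microglia, where Adult 1 held 386 microglia and Adult 2 and 3 held 273 and 300. The part of library differences in the clusters was not tested, and the clusters are described without a test.

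**Figure D4:**
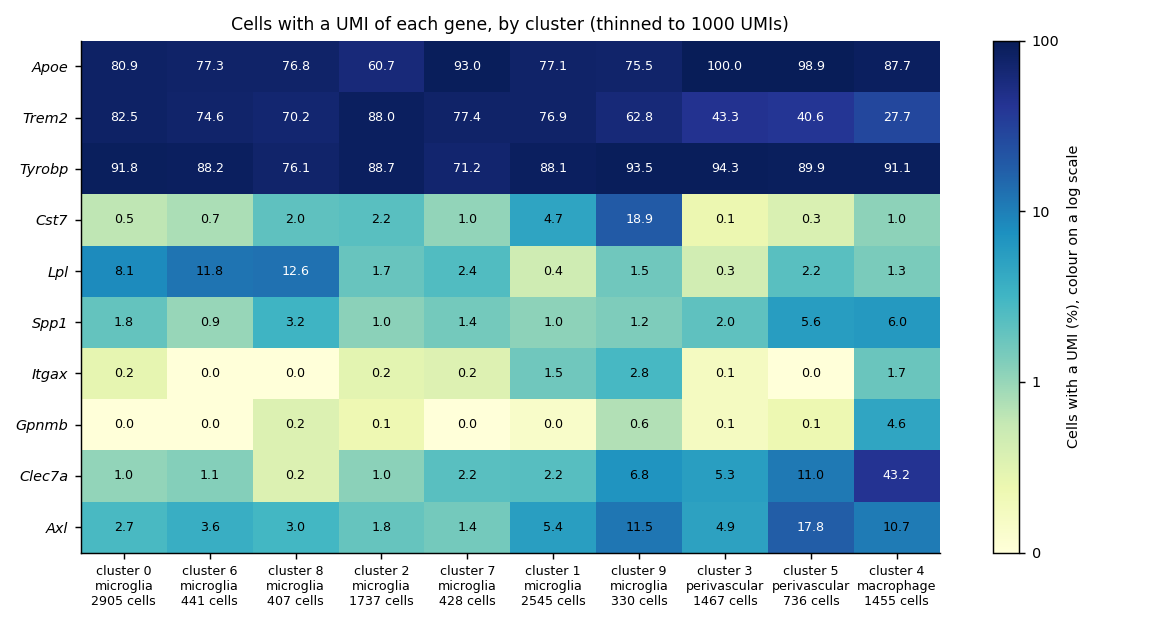
Share of thinned cells in percent with at least 1 UMI of each of the 10 genes (printed, with colour on a log scale) in each microglia and PVM cluster and in macrophage cluster 4. The macrophage cluster with neutrophil transcripts is not shown. Cst7 reaches 18.9% in the cycling EAE cluster 9 and Clec7a 43.2% in macrophage cluster 4.

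Several pairs of members met in the same cell more often than their separate frequencies in a library would give. In EAE microglia Cst7 and Axl were both detected in 21 of 2744 cells, against 10.3 expected from their separate shares (ratio 2.04, above 1 in both libraries). Cst7 and Clec7a met in 12 cells against 4.25 expected, Itgax and Axl in 6 against 2.70, Clec7a and Axl in 7 against 3.92, while Cst7 and Itgax met in 2 against 2.93. In juvenile microglia Lpl and Axl met in 20 of 3794 cells against 9.89 (2.02, above 1 in 4 of 4 libraries), Lpl and Spp1 in 12 against 7.20 and Lpl and Clec7a in 5 against 3.51 (3 of 4 libraries for each). In aged microglia 18 cells in all held at least 2 members, among them 6 with Clec7a and Axl, against 0.339 expected. In aged PVMs Clec7a and Axl met in 17 of 532 cells against 8.91 (1.91, both libraries) and Spp1 and Axl in 7 against 3.30 (2.12, both libraries). In adult PVMs Clec7a and Axl met in 2 of 549 cells against 2.24 (0.894, above 1 in 1 of 3 libraries). In EAE macrophages, where Clec7a was detected in 648 of 1563 cells, it met Axl in 73 against 64.0 (1.14), Spp1 in 41 against 37.2 (1.10) and Gpnmb in 23 against 30.6 (0.752). Itgax and Clec7a met in 15 against 10.4 (1.45) and Spp1 and Gpnmb in 6 against 4.17 (1.44). The other macrophage pairs with at least 2 cells expected had ratios of 0.905 to 1.22. In EAE PVMs Clec7a and Axl met in 8 of 531 cells against 4.49 (1.78, both libraries), Spp1 and Axl in 6 against 3.33 (1.80) and Spp1 and Clec7a in 1 against 2.14 (0.467). Most counts are small and these ratios carry no test, and the part of clusters and of other cells' transcripts in them was not tested.

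**Figure D5:**
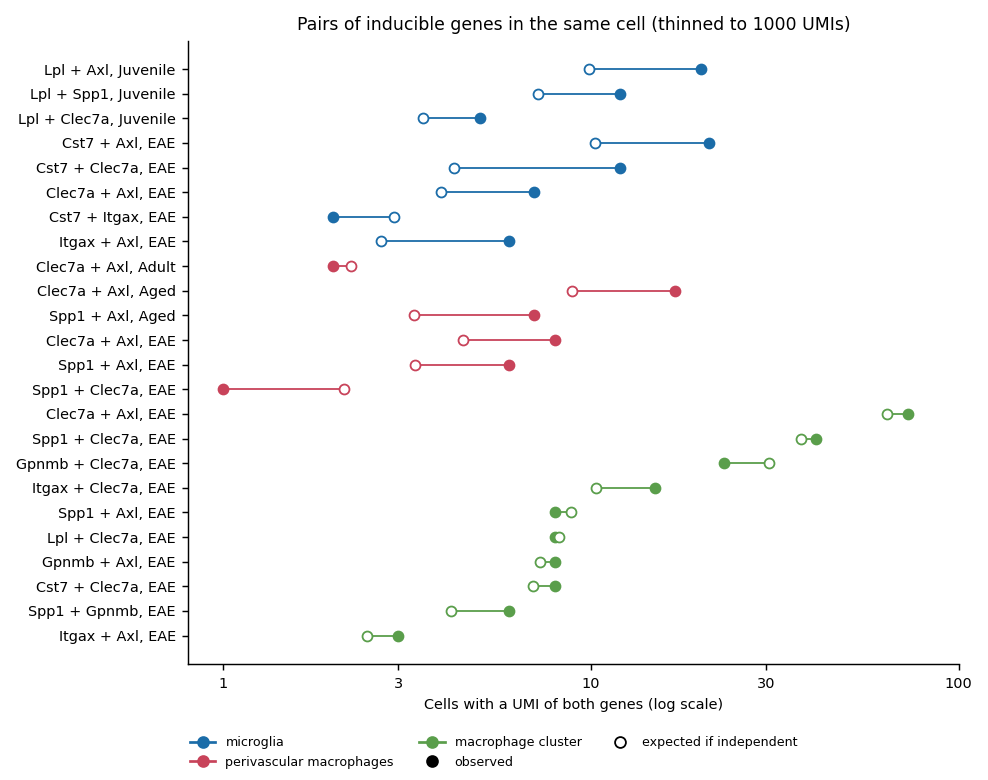
Cells in which 2 induced members were both detected after thinning to 1000 UMIs (filled points, log axis) and the number expected from their separate shares in each library (open points), for pairs with at least 2 expected, coloured by population. The filled points lie furthest above the open ones for pairs such as Cst7 with Clec7a in EAE microglia (12 against 4.25), and the macrophage pairs lie closer together.

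Homeostatic transcripts were then set against the number of members in a cell. In the 2 EAE libraries P2ry12, the ADP receptor of resting microglia, was detected in 64.9% and 64.8% of thinned microglia with none of the 7 members, in 49.2% and 54.7% of those with 1, and in 50% and 42.1% of those with 2 (20 and 19 cells). Tmem119 went from 80.1% and 77.5% with none to 68.7% and 69.3% with 1 and 60.0% and 31.6% with 2, and Cx3cr1 from 46.7% and 48.3% to 41.0% and 38.5% and then 25% and 5.3%. In EAE 1 the share with P2ry12 was no lower with 2 members than with 1. Aged microglia had P2ry12 in 96.1% and 97.4% of cells with none, 80.0% and 76.0% with 1 and 71.4% and 60.0% with 2 (7 and 5 cells). Tmem119 was in 88.2% and 87.9%, then 68.6% and 80.0%, then 71.4% and 20%. Cx3cr1 was in 78.7% and 72.6%, then 51.4% and 68.0%, then 57.1% and 60.0%. In Aged 1 both were higher with 2 members than with 1. In juvenile microglia the order did not hold in every library, and in Juvenile 2 P2ry12 went from 93.3% with none to 95.3% with 1 and Cx3cr1 from 68.6% to 71.1%. Apoe went the other way in EAE, from 76.9% and 76.0% with none to 80.0% and 82.8% with 1. Trem2 did not, and went from 76.1% and 76.3% with none to 70.3% and 67.2% with 1. Tyrobp was mixed, going from 88.1% to 84.6% in EAE 1 and from 89.0% to 92.2% in EAE 2. The mean of Apoe was 1.37 and 1.40 UMIs per thinned cell in aged microglia with none of the members. It was 63.7 and 29.3 in the 3 cells of each aged library with at least 3, which held no Tmem119 UMI. In Adult 3 it was 1.97 with none and 74 in the 3 cells with 2. A mean of 1 UMI per thinned cell equals 1000 CPM, and PVMs held 70758 CPM of Apoe in Aged 1, 68446 in Aged 2 and 71064 in Adult 3. The means of 63.7 in Aged 1 and 74 in Adult 3 were thus near the PVM level, and that of 29.3 in Aged 2 lay between microglia and PVMs. Whether these few cells were PVMs was not tested. The part of other cells' transcripts, and of cells named wrongly, in these shares and means was not tested, and no test was made over cells.

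Of 22 further disease-associated genes, all tested in microglia, 10 were called as higher and 1 as lower in EAE, where 25.7% of all genes were called, and 4 and 8 at P10, where 24.5% were. At 18 months edgeR called 3 as higher and 0 as lower (2 lower at an unadjusted p under 0.05, and 0 by DESeq2), where 1.91% of all genes were called. With neighbouring libraries summed 6 of the 11 EAE calls, 7 of the 12 at P10 and 0 of the 3 at 18 months were kept. In EAE microglia the largest rises were of B2m, the light chain of MHC class I, by 2.10 ± 0.19 SE on the log2 scale (edgeR adjusted p = 2.6e-06), of Cd52 by 2.08 ± 0.14 (9.1e-08) and of the iron store Fth1 by 1.62 ± 0.12 (3.1e-07). At 18 months the chemokine Ccl4 rose by 1.17 ± 0.22 SE, Lyz2 by 0.73 ± 0.13 and Cd52 by 0.71 ± 0.13 (edgeR adjusted p = 0.025, 0.012 and 0.019), and all 3 calls were lost with neighbouring libraries summed (0.46, 0.67 and 0.70). At P10 the lipid droplet gene Plin2 rose by 1.07 ± 0.22 SE (edgeR adjusted p = 0.0037), while the lysosomal protease Ctsd fell by 1.13 ± 0.12 (1.3e-05) and Cd9 fell by 1.03 ± 0.14 (9.7e-05). In PVMs 21 of the 22 were tested, of which edgeR called 9 as higher and 0 as lower in EAE (3 lower at an unadjusted p under 0.05, and 0 by DESeq2), 5 and 1 at 18 months, and 2 and 8 at P10 (beside 18.9%, 3.34% and 9.43% of all genes called in either direction), with Ccl6 (2.80 ± 0.26 SE) and Lgals3 (1.94 ± 0.38) highest in EAE (edgeR adjusted p = 4.9e-06 and 0.0084). Of these 9, 6 and 10 calls in PVMs, 4, 0 and 2 were kept with neighbouring libraries summed.

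Of 17 tested ligands, kinases and lipid genes that work with the members, 4 were called as higher and 4 as lower in EAE microglia (13.4% and 12.4% of all genes), and 3 and 6 at P10 (12.1% and 12.4%). At 18 months edgeR called 0 (3 lower at an unadjusted p under 0.05, and 0 by DESeq2). Gas6, the ligand of AXL, fell in EAE by 1.39 ± 0.17 SE on the log2 scale (edgeR adjusted p = 3.2e-05) while Axl rose. Pros1, a ligand of the related receptors MERTK and TYRO3, fell in EAE by 0.81 ± 0.13 SE (edgeR adjusted p = 2.9e-04). At P10 Gas6 rose by 1.26 ± 0.15 SE (edgeR adjusted p = 2.99e-05), as Axl did. Hcst, the sister adaptor of Tyrobp, and Grn, progranulin, rose in EAE by 1.09 ± 0.18 and 0.84 ± 0.15 SE (edgeR adjusted p = 3.9e-04 and 7.4e-04), and the lysosomal lipase Lipa fell by 0.82 ± 0.14 (5.7e-04). With neighbouring libraries summed 2 of the 8 EAE calls were kept, Gas6 and Hcst (edgeR adjusted p = 0.021 for both), and 2 of the 9 at P10, among them Gas6 (0.0075). Pros1, Grn and Lipa in EAE were lost (0.099, 0.065 and 0.066). In PVMs, where 16 were tested, 6 were called as higher and 3 as lower in EAE, 1 and 2 at 18 months and 2 and 3 at P10 (beside 18.9%, 3.34% and 9.43% of all genes), with Abcg1, a cholesterol exporter, up by 1.21 ± 0.16 SE (edgeR adjusted p = 3.4e-06). Of these 9, 3 and 5 calls in PVMs, 5, 0 and 1 were kept with neighbouring libraries summed.

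The 13 homeostatic genes were not left out of the clustering, and 8 of them also named the microglia. Of the 13, edgeR called 8 as lower and 0 as higher in EAE microglia (0 also at an unadjusted p under 0.05 and by DESeq2), where 12.4% of all genes were called as lower. P2ry12 fell by 1.54 ± 0.17 SE on the log2 scale and Gpr34 fell by 1.45 ± 0.11 (edgeR adjusted p = 1.1e-05 and 4.3e-07), and with neighbouring libraries summed these were the 2 of the 8 that were kept (0.013 and 0.0090). At P10 3 were called as lower and 1 as higher (beside 12.4% and 12.1% of all genes), and at 18 months 1 as higher (beside 1.05%), Gpr34, which was lost with neighbouring libraries summed (0.75), as were 3 of the 4 at P10. In PVMs 5 were called as lower in EAE and 2 at P10 (beside 8.1% and 5.89% of all genes), and 2 as higher at 18 months (beside 2.07%), of which 3, 1 and 1 were kept with neighbouring libraries summed. The median log2 change of the 13 was -0.87 in EAE, against 0.60 for the 22 further disease-associated genes.

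Finally, genes were ranked by how closely their level followed each member over the 29 library sums of the 3 populations (Pearson's r of log CPM, across 2975 genes, given as a description since sums of 1 library share its depth). The sums included macrophage-like cells of all conditions, also those outside EAE that were set aside above. Apoe was most like Ms4a7 (r = 0.951) and Dab2 (0.933), Tyrobp like Fcer1g (0.970) and P2rx4 (0.930), and Trem2 like Ifngr1 (0.971) and Cttnbp2nl (0.970). Among the induced members Clec7a was most like Fosl2 (0.923) and Igsf6 (0.885), Axl like Cxcl16 (0.871) and Ms4a6d (0.854), Cst7 like Lat2 (0.863) and Itgb2 (0.834), and Itgax like Ctss (0.790) and Ogfrl1 (0.784). Gpnmb (Sod2, 0.826), Lpl (Klf3, 0.766) and Spp1 (Cox14, 0.737) had no gene above 0.83. No 2 members shared a gene among their closest 2.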

How the data were processed

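The deposited files held whole UMI counts per gene and cell barcode for the 11 libraries. Per the labels and the submitters' processing notes, the authors made these counts with bcl2fastq 2.19.1.403, UMI-tools 0.5.3, STAR 2.5.3a and featureCounts 1.6.1 (Subread) on mm10, and cell barcodes inside and outside the study's filters were present. The study's methods name other versions of UMI-tools, STAR and featureCounts, so the versions behind these counts are uncertain. Reads that match several genes or overlapping genes may be split between them, and the counting of strand was not given in the sources used here. Sequences are from RefSeq (GRCm38.p6).

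Cells were clustered in Seurat 5.3.0 (R 4.3.3, with scale factor 10000, 2000 variable genes, 12 principal components and resolution 0.5), first all cells and then the myeloid ones. The 10 genes and the lists of further disease-associated and partner genes were left out, and the homeostatic genes were not. No step aligned the libraries with each other. A cluster took the name of its best marker list at a score of at least 0.4 with at least 3 markers in over 25% of its cells and a second list below 0.5 of the first; these limits were chosen with the clusters in view. Scrublet (scanpy 1.11.5, Python 3.11.15) called 831 of 50625 cells doublets (1.64%), which were kept and left out in an alternative. The clusters left unnamed held the most (15.9%), microglia 0.296%.

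UMIs were summed per library and population with at least 10 cells. The quasi-likelihood test of edgeR 4.0.16, in its robust form with TMM scaling and the filter filterByExpr, was fitted over all genes and libraries, with Benjamini-Hochberg adjusted p-values and calls at 0.05. DESeq2 1.42.0 was an alternative. The fits recovered known changes in simulated counts, which had the same spread for all genes and independent libraries. Neighbouring libraries here were alike, so the simulation gives no error rate for the calls reported. No replicate number paired samples of different conditions: deviations of libraries with the same number correlated at -0.084 to 0.075 in microglia and PVMs (13 pairs each), so the number was not used as a block. Every member is described. Of the other lists, the 3 genes with the largest change per list, direction and comparison could be named, among called genes at 50 CPM or more in either group. 1 gene that this rule names is not reported here. Genes closest to a member were sought among those with a mean of at least 50 CPM over the sums. The 10 genes and the lists were chosen with earlier results of these data known, so no count over a list is independent support. Endothelial cells served as the background for cells with a UMI.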

Additional observations from a re-analysis of the deposited data

Results flagged for a closer look

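Among 22 sets of 4 juvenile library values looked at, 2 had a library far from the others by Dixon's test, and chance alone flags about 1 in 20. The sets of Cst7 and Itgax in PVMs were at 0 in all 4 libraries and could not be tested. Both were Gpnmb, at 4.02 CPM in microglia of Juvenile 1 (10 of 14 UMIs in 1 cell) and at 1.88 CPM in PVMs of Juvenile 2. The latter is 1 UMI, and since the other 3 libraries were at 0 any UMI would have been listed.

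The change against adult differed between PVMs and microglia in the fit of both populations (edgeR). On the log2 scale, PVMs minus microglia, the difference was -1.52 for Apoe, -1.85 for Axl and 0.99 for Clec7a at P10, 0.90 for Apoe and 1.45 for Axl at 18 months, and -1.11 for Apoe in EAE.

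Members were also seen in endothelial cells, which entered no test between conditions and served as background. Lpl was at 15.8 CPM or more in ECs of both EAE libraries and Clec7a at 5.87 CPM or more, each above its level in ECs of every adult library (at most 1.3 and 2.2 CPM).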

How the results depend on the processing

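Of the 22 member calls, 20 were kept by DESeq2, 22 without a filter on low counts, 21 with 11 separate libraries, 19 without doublets, 20 with the listed genes left in the clustering, 18 at clustering resolution 0.9, 16 with cells named by marker score and 13 with neighbouring libraries summed. An alternative chosen after seeing the data, leaving out cells with 5 or more UMIs of other classes' markers, kept 4943 of 8793 microglia and 340 of 2203 PVMs and 14 of the 22 calls. Few cells per library limit the PVM and single-cell results.

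Counts of called genes moved as follows, and the cause was not tested beyond the smaller number of samples or cells. In microglia they were 1054 at P10, 2 at 18 months and 838 in EAE with neighbouring libraries summed, and 1750 and 1598 at P10 and in EAE without cells with other classes' markers. At 18 months they were 617 without a filter, 329 with 11 libraries and 216 as reported. In PVMs they were 455, 153 and 915 at P10, 18 months and in EAE by DESeq2, 251, 24 and 605 with neighbouring libraries summed and 70, 21 and 111 without cells with other classes' markers; at 18 months also 459 without a filter, 125 at resolution 0.9 and 93 by marker score. For the difference between PVMs and microglia they were 257, 39 and 240 by DESeq2 and 221, 28 and 106 without cells with other classes' markers, 243 at P10 by marker score, and 57 at 18 months and 380 in EAE with neighbouring libraries summed.

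With the replicate number as a block and 11 libraries, 457 genes were called in aged microglia. All 16 member calls within a population were kept in that setting, and 4 member differences that did not pass in the main fit passed. Without the library block the counts of the difference were 229, 5 and 195 at P10, 18 months and in EAE. Leaving out 1 library gave 1566 to 2704, 10 to 223 and 1573 to 2982 calls in microglia at P10, 18 months and in EAE, 594 to 769, 46 to 332 and 843 to 1617 in PVMs, and 473 to 609, 42 to 131 and 363 to 679 for the difference.

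The difference from adult in the share of cells with at least 2 members, in percentage points, did not keep its size. Thinned to 1500 UMIs it turned to -0.087 in juvenile and -0.43 in aged microglia and was 3.38 in EAE PVMs. Without thinning it was 2.67 and 5.99 in juvenile and EAE microglia and -5.32 and 9.74 in juvenile and EAE PVMs. In aged PVMs it was 1.63 at resolution 0.9 and 1.16 by marker score. For at least 3 members it was -0.036 in juvenile and 0.143 in EAE microglia and 0 in aged and 0.187 in EAE PVMs. Leaving out 1 library gave 0.17 to 0.94, 0.46 to 1.23 and 0.53 to 1.30 in juvenile, aged and EAE microglia and -1.14 to -0.24, 2.71 to 4.50 and 1.31 to 2.09 in PVMs.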
